A study of Mus musculus with 4 samples.

Results

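The nuclear pore and its transport receptors were followed by RNA-seq in mouse CD8+ T cells exposed to NaBu and in control cells. The genes were taken by symbol, as every listed gene whose symbol starts with *Nup*, *Kpna*, *Kpnb*, *Ipo*, *Xpo* or *Tnpo* followed by a digit. This gave 42 of the 17559 genes listed, 20 nucleoporins and 22 importins and exportins. Pore and transport genes with other symbols, such as *Ran*, *Tpr* and *Cse1l*, fall outside that rule and are given as partners.

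The nuclear pore is a ring-shaped channel through both membranes of the nuclear envelope, built from many copies of each nucleoporin. Outer rings and an inner ring form its scaffold, membrane nucleoporins anchor it, and nucleoporins rich in phenylalanine-glycine (FG) repeats fill the channel and extend into cytoplasmic filaments and a nuclear basket. Importins and exportins carry proteins and RNA through the channel. Importin α adaptors bind the classical nuclear localisation signal and travel with importin β, whereas other receptors of the importin β family bind their cargo directly, and the small GTPase Ran releases import cargo inside the nucleus and loads export cargo. In T cells, classical import is the route of transcription factors such as NF-κB, and activated T cells enlarge their nuclei and divide, which requires new pores.

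The NaBu cells and the control cells, 2 libraries each, were OT-I CD8+ T cells of C57BL/6 mice from tissue labelled LN. OT-I is a transgenic T cell receptor that recognises an ovalbumin peptide, and it was carried by both groups. Cells above 95% purity after magnetic negative selection had been activated in both groups for 2 d with IL-2 (10 ng/ml), coated anti-CD3 at 1 µg/ml and coated anti-CD28 at 2 µg/ml, and kept for another 2 d in IL-2 alone. One group then received 1 mM NaBu for 12 h, and the other received control treatment. NaBu commonly stands for sodium butyrate, the salt of a short-chain fatty acid made by gut bacteria, which inhibits histone deacetylases. The labels do not say whether the 2 libraries of a group came from separate mice or cultures, so the p-values measure the spread between these libraries, which may be technical.

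The libraries held 19857701 to 20548571 expected counts. Levels are given as deposited, in FPKM, fragment numbers scaled per kilobase of transcript and to the mapped fragments of the library. Fold changes are NaBu over control on the log2 scale, fitted with edgeR to the expected counts of 12943 genes with TMM scaling, and a gene is called at a Benjamini-Hochberg adjusted p below 0.05. Of all tested genes, 34.1% were called lower and 34.5% higher in NaBu cells, and the median log2 fold change was 0.005. Markers of the labelled cell type were high in both groups: *Cd8a* had 93.9 and 97.0 FPKM in NaBu cells, against 118.4 and 115.9 FPKM in control cells, and the 5 listed T cell markers summed to 1204 and 1209 FPKM in NaBu cells, against 1216 and 1178 FPKM in control cells. Within that sum, *Cd3g* was called higher (log2 fold change 0.41) and the other 4 lower, from *Cd3e* at -0.16 to *Cd3d* at -0.74, with a median of -0.39 over the 5.

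Promoter sequence is shown for the 4 members with the lowest fold changes, and for *Xpo6*, the exportin that was higher, because these members moved furthest in each direction among those with a RefSeq window. RefSeq windows on GRCm38.p6, the assembly also called mm10, run from 250 bases before to 50 bases after the start of transcription, and 33 of the 42 members had at least 1. The windows are *Kpna2* at chr11:106999476-106999775 (minus strand), *Nup37* at chr10:88146742-88147041 (plus strand), *Nup133* at chr8:123949216-123949515 (minus strand), *Xpo1* at chr11:23255791-23256090 (plus strand) and *Xpo6* at chr7:126200452-126200751 (minus strand). Capitals mark the CHR letters TTTGAA and the CCAAT box on either strand, the pair of elements known from promoters of genes that peak late in the cell cycle.
Kpna2: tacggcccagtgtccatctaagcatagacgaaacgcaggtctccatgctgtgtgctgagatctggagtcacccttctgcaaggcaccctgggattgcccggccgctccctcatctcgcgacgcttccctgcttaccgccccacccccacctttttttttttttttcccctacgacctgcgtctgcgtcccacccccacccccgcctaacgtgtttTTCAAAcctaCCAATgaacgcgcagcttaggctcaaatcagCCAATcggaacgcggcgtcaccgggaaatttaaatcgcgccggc
Nup37: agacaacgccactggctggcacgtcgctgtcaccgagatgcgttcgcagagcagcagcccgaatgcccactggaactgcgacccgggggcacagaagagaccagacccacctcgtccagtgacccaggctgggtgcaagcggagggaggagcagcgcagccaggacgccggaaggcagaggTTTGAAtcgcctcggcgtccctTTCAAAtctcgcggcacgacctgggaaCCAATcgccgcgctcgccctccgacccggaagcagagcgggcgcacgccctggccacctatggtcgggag
Nup133: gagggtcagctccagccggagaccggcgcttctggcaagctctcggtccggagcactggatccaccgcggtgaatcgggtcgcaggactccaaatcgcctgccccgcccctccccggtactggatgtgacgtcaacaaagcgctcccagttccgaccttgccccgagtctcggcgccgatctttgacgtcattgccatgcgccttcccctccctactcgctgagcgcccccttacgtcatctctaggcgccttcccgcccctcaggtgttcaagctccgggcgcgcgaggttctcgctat
Xpo1: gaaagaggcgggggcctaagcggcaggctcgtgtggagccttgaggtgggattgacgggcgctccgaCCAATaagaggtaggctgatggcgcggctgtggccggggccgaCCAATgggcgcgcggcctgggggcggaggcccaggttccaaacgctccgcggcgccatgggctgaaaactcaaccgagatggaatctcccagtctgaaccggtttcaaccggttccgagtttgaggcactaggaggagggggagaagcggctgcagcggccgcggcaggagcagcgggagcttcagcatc
Xpo6: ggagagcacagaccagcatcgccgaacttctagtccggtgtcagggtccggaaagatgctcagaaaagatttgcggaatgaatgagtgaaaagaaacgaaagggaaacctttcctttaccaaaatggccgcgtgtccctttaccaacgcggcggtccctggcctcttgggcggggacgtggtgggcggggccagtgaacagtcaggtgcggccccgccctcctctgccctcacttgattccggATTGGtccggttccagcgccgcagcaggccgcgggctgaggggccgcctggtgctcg

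In the *Kpna2* window the CHR letters stood at base 216, with CCAAT boxes at bases 226 and 257, counted from 1 at the 5′ end. The *Nup37* window shown held the CHR letters at bases 182 and 204 and a CCAAT box at base 231. A second, overlapping *Nup37* window, at chr10:88146821-88147120 and not printed, held the CHR letters at bases 103 and 125 and a CCAAT box at base 152. *Xpo1* had CCAAT boxes at bases 68 and 111 and no CHR letters, and *Xpo6* had a CCAAT box at base 244. *Nup133* had neither. None of the capitalised hits overlap each other.

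Such letters are common, so these matches are descriptions and not binding sites. The CHR letters were found in 17.9% of all 32851 promoter windows and in a window of 14.3% of the 10303 tested genes that had one, and in 5 of 27 members called lower (*Nup37*, *Kpna2*, *Ipo4*, *Ipo7*, *Tnpo2*). CCAAT was in 37.4% of all windows and in a window of 43.4% of those tested genes, and in 15 of 27 members called lower and 1 of 2 called higher. Both strands were also searched for GCATGCGC, the core of the NRF1 motif (6.01% of those tested genes, 4 of 27 members called lower), for the E2F letters TTTNNCGC (9.91% and 6 of 27), for the E-box CACGTG (11.6% and 6 of 27) and for the GC box GGGCGG (68.1% and 18 of 27). Hits of different motifs were counted separately even where they shared bases.

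Most nucleoporin transcripts were lower in NaBu cells. Of 20 nucleoporins, 17 were called lower, 1 was called higher (*Nup210l*) and 2 were not called (*Nup98* and *Nup153*). Over all tested genes, 34.1% were called lower and 34.5% higher. The median log2 fold change of the nucleoporins was -0.60. Summed FPKM of the 20 genes was 457.6 ± 4.70 in NaBu cells and 610.1 ± 12.5 in control cells (SD, n = 2 each). Among the importins and exportins, calls went both ways: of 21 tested, 14 were called lower, 4 higher and 3 neither, with a median log2 fold change of -0.34. Their summed FPKM was 582.5 ± 0.58 in NaBu cells and 817.6 ± 52.7 in control cells (SD, n = 2 each). *Kpna7*, an importin α known from oocytes and early embryos, was the member left untested, with 0 to 0.02 FPKM in every library.

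Of the 41 tested members, 36 had no overlap between the FPKM values of the 2 groups, which is close to the 84.0% of all tested genes without overlap and so tells nothing particular of the members. The 5 that overlapped were *Nup98*, *Nup153*, *Kpna3*, *Kpna4* and *Xpo7*. With FPKM divided by the TMM factors, *Kpna3*, *Kpna4* and *Xpo7* overlapped. With 2 libraries per group, an exact permutation test of a single gene cannot give a two-sided p below 0.333, so calls rest on the edgeR fit, which shares its estimate of the spread between genes. When edgeR's test against a fold change of 1.5 was used in place of the test against no change, 7 nucleoporins were called lower (*Nup37*, *Nup133*, *Nup155*, *Nup35*, *Nup85*, *Nup43*, *Nup160*) and 6 importins and exportins (*Kpna2*, *Xpo1*, *Kpnb1*, *Xpo4*, *Ipo5*, *Ipo9*). No member was called higher by it, whereas 12.1% of all tested genes were called lower and 17.1% higher.

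**Figure D1:**
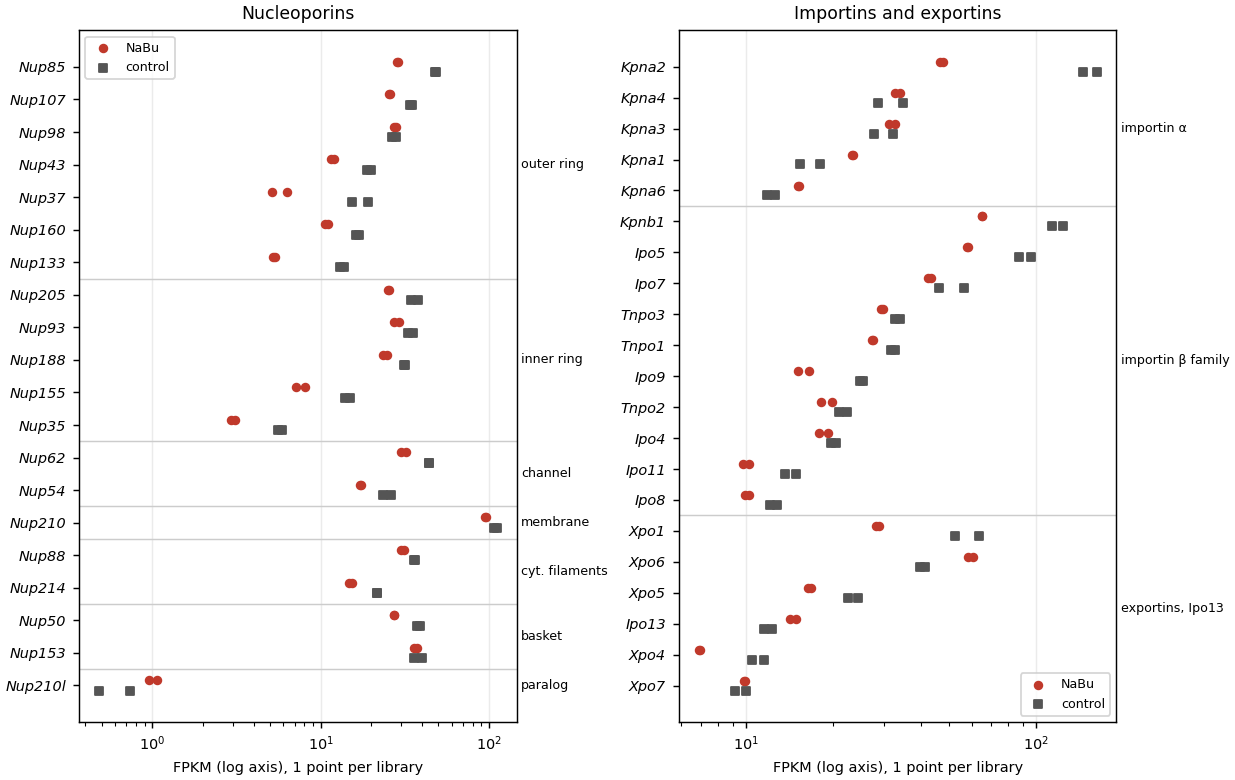
FPKM of each tested member on a log axis, with 1 point per library, NaBu as circles above control as squares, grouped by place in the pore or by transport role. The NaBu points of *Kpna2* lie at 46.7 and 47.8 FPKM, left of its control points at 144.9 and 161.2 FPKM, while those of *Nup98*, *Nup153*, *Kpna3*, *Kpna4* and *Xpo7* overlap the range of the control points.

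The outer ring, or Y complex, held the largest falls among the nucleoporins. *Nup37*, a peripheral subunit of the Y complex of vertebrates, had 5.12 and 6.31 FPKM in NaBu cells, against 15.4 and 19.1 FPKM in control cells. Every control value was more than 2 times every NaBu value, and the log2 fold change was -1.69 (SE 0.14, adjusted p = 1.85e-06 in edgeR). This transcript was the least counted of the ring, with 129 and 159 expected counts in NaBu cells, against 397 and 497 in control cells.

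*Nup133*, which lies at the tip of the stalk of the Y and contacts the membrane, had 5.20 and 5.37 FPKM in NaBu cells, against 13.0 and 13.7 FPKM in control cells. Both pairs were tight, and the log2 fold change was -1.44 (SE 0.07, adjusted p = 4.10e-08 in edgeR). In control cells it was the least abundant of the 7 outer ring members by FPKM, and in NaBu cells its values overlapped those of *Nup37*. *Nup85*, an arm subunit and the most abundant of the 7 outer ring members, had 28.9 and 28.4 FPKM in NaBu cells, against 48.4 and 48.0 FPKM in control cells (log2 fold change -0.85, SE 0.06, adjusted p = 5.55e-07 in edgeR). The ratio of *Nup133* to *Nup85* FPKM was 0.185 ± 0.006 in NaBu cells and 0.278 ± 0.012 in control cells (SD, n = 2 each), so the transcripts of 2 subunits of one complex did not fall in proportion.

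*Nup43*, a small subunit at the arm of the Y, had 11.5 and 11.9 FPKM in NaBu cells, against 18.9 and 19.8 FPKM in control cells (log2 fold change -0.82, SE 0.09, adjusted p = 1.32e-05 in edgeR). *Nup160*, where arms and stalk meet, had 11.0 and 10.6 FPKM in NaBu cells, against 16.3 and 16.8 FPKM in control cells (log2 fold change -0.72, SE 0.06, adjusted p = 2.72e-06 in edgeR). *Nup107*, of the stalk, fell less, with 25.5 and 25.9 FPKM in NaBu cells, against 34.0 and 34.7 FPKM in control cells, and a log2 fold change of -0.52 (SE 0.06). The groups did not overlap for any of these 3 genes, nor for 84.0% of all tested genes.

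*Nup98* stood apart within the ring list. Its transcript encodes a precursor that is cleaved into the FG nucleoporin Nup98 and a subunit of the Y complex. It had 27.3 and 28.1 FPKM in NaBu cells, against 26.3 and 28.1 FPKM in control cells, and a log2 fold change of -0.09 (SE 0.06, adjusted p = 0.21 in edgeR). Without control replicate 1 it was called lower, at -0.15 (adjusted p = 0.034 in edgeR). The other Y complex genes carry other symbols. *Seh1l* was lower (log2 fold change -0.51, SE 0.08), as was *Ahctf1* (-0.33, SE 0.07), which encodes the chromatin-binding subunit ELYS, and *Sec13*, which also serves in coated vesicles of the secretory pathway, was not called (0.06, SE 0.07). Of the 10 outer ring genes, 8 were thus called lower and 0 higher, beside 34.1% lower and 34.5% higher over all tested genes.

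All 5 inner ring genes were called lower, beside 34.1% of all tested genes. *Nup155*, which ties the inner ring to the membrane and outer rings, had 7.14 and 8.02 FPKM in NaBu cells, against 13.9 and 15.0 FPKM in control cells, a log2 fold change of -1.03 (SE 0.08, adjusted p = 7.87e-07 in edgeR). *Nup35*, a membrane-binding subunit also called Nup53, had 2.94 and 3.10 FPKM in NaBu cells, against 5.59 and 5.89 FPKM in control cells, a log2 fold change of -1.02 (SE 0.11, adjusted p = 1.03e-05 in edgeR). These were the 2 least abundant transcripts of the ring in both groups, and their groups were far apart relative to the spread within them.

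The other 3 genes of the ring had smaller falls. *Nup205* had 25.3 and 25.0 FPKM in NaBu cells, against 34.6 and 37.7 FPKM in control cells (log2 fold change -0.62, SE 0.06, adjusted p = 9.51e-06 in edgeR). Its paralog *Nup188* had 23.4 and 24.9 FPKM in NaBu cells, against 31.6 and 31.1 FPKM in control cells (log2 fold change -0.47, SE 0.06), and *Nup93*, the linker that binds both, had a log2 fold change of -0.38 (SE 0.07). The ratio of *Nup35* to *Nup93* FPKM was 0.107 ± 0.001 in NaBu cells and 0.167 ± 0.002 in control cells (SD, n = 2 each).

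Of 3 channel genes, 2 were called lower and 1 was not called, beside 34.1% of all tested genes called lower. *Nup62*, an FG nucleoporin, had 30.1 and 32.3 FPKM in NaBu cells, against 43.8 and 43.8 FPKM in control cells, and *Nup54*, its partner in the channel, had 17.3 and 17.2 FPKM in NaBu cells, against 23.5 and 26.3 FPKM in control cells. Their log2 fold changes were -0.59 (SE 0.06) and -0.62 (SE 0.08), and the ratio of *Nup54* to *Nup62* FPKM was 0.554 ± 0.030 in NaBu cells and 0.568 ± 0.046 in control cells (SD, n = 2 each), within the spread between libraries. The third channel gene, *Nupl1*, which encodes Nup58, was not called (log2 fold change 0.09, SE 0.06).

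At the membrane, *Nup210* was the most abundant nucleoporin transcript. It had 94.8 and 95.7 FPKM in NaBu cells, against 110.9 and 106.5 FPKM in control cells, a log2 fold change of -0.29 (SE 0.06, adjusted p = 0.0019 in edgeR). That call was lost without NaBu replicate 1, at an adjusted p of 0.056 in edgeR. *Nup210* encodes gp210, a transmembrane nucleoporin reported in T cells. *Ndc1*, the transmembrane nucleoporin needed for pore assembly, had 7.38 and 8.41 FPKM in NaBu cells, against 18.4 and 20.3 FPKM in control cells, a log2 fold change of -1.39 (SE 0.09), and *Pom121* had a log2 fold change of -0.28 (SE 0.06).

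*Nup210l*, the paralog of *Nup210* known from the testis, was the single nucleoporin called higher. It had 1.07 and 0.95 FPKM in NaBu cells, against 0.74 and 0.48 FPKM in control cells, with a log2 fold change of 0.63 (SE 0.20, adjusted p = 0.018 in edgeR). These values are far below those of *Nup210* and rest on 122 and 108 expected counts in NaBu cells, against 86 and 57 in control cells. The call was lost when NaBu replicate 1, NaBu replicate 2 or control replicate 2 was left out (adjusted p = 0.13, 0.057 and 0.13 in edgeR), with DESeq2 and with no filter on low counts.

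Of 7 tested genes of the cytoplasmic filaments, 4 were called lower, 1 higher and 2 neither, beside 34.1% lower and 34.5% higher over all tested genes. *Nup214*, an FG nucleoporin at which exportin 1 docks, had 14.7 and 15.3 FPKM in NaBu cells, against 21.5 and 21.5 FPKM in control cells (log2 fold change -0.62, SE 0.06, adjusted p = 5.58e-06 in edgeR). *Nup88*, which binds it, had 31.3 and 29.8 FPKM in NaBu cells, against 36.5 and 36.0 FPKM in control cells (log2 fold change -0.34, SE 0.06). Of the filament genes with other symbols, *Gle1*, which activates the mRNA export helicase at the pore, was lower (log2 fold change -1.10, SE 0.07), *Rae1*, an mRNA export factor, was higher (0.37, SE 0.06), and *Ranbp2*, the large Ran-binding filament protein, was not called (-0.17, SE 0.07), nor was *Nupl2* (-0.12, SE 0.11).

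Of 3 genes of the nuclear basket, 2 were called lower and 1 was not called, beside 34.1% of all tested genes called lower. *Nup50*, a soluble nucleoporin that helps to release cargo from importin α, had 27.1 and 27.2 FPKM in NaBu cells, against 37.5 and 39.0 FPKM in control cells (log2 fold change -0.59, SE 0.06, adjusted p = 7.45e-06 in edgeR). *Nup153*, the FG nucleoporin that holds the basket, had 37.2 and 35.7 FPKM in NaBu cells, against 35.9 and 40.1 FPKM in control cells, and was not called (log2 fold change -0.15, SE 0.07, adjusted p = 0.069 in edgeR). The ratio of *Nup153* to *Nup50* was 1.34 ± 0.04 in NaBu cells and 0.993 ± 0.050 in control cells (SD, n = 2 each). *Nup153* was called lower without control replicate 1, at an adjusted p of 0.0038 in edgeR, and with the trend on transcript length removed, at 0.017. *Tpr*, the main basket filament, was lower (log2 fold change -0.26, SE 0.07).

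**Figure D2:**
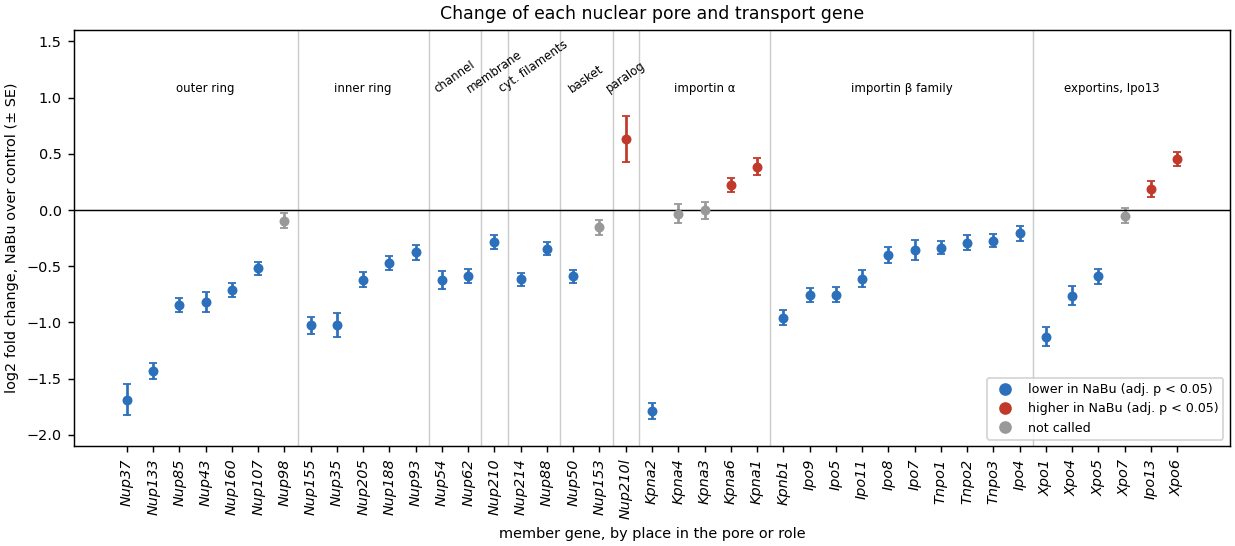
Log2 fold change of each tested member, NaBu over control, with its standard error, ordered by place in the pore or role and coloured by call. The outer ring runs from *Nup37* at -1.69 to *Nup98* at -0.09, and *Kpna2* at -1.79 lies far below the 4 other importin α genes. The 10 import receptors of the importin β family, a group that leaves out *Ipo13* and the exportins, all lie below 0.

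Among the transport receptors, *Kpna2* had the largest fall of all 42 genes. It encodes importin α1, an adaptor known for high levels in proliferating cells and in embryonic stem cells. *Kpna2* had 46.7 and 47.8 FPKM in NaBu cells, against 144.9 and 161.2 FPKM in control cells. The lowest control value was 3 times the highest NaBu value, and the log2 fold change was -1.79 (SE 0.07, adjusted p = 1.12e-08 in edgeR), the 259th lowest among the 12943 genes tested. Its expected counts were whole numbers in every library, which shows no division of reads with other genes.

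The other importin α genes did not follow. *Kpna1*, which encodes importin α5, had 23.5 and 23.2 FPKM in NaBu cells, against 15.4 and 17.98 FPKM in control cells, and a log2 fold change of 0.39 (SE 0.08, adjusted p = 0.0011 in edgeR). *Kpna6*, encoding importin α7, had 15.2 and 15.3 FPKM in NaBu cells, against 11.8 and 12.6 FPKM in control cells, and a log2 fold change of 0.23 (SE 0.06, adjusted p = 0.009 in edgeR). Both were higher in each NaBu library than in each control library, while 84.0% of all tested genes had no overlap in either direction. The *Kpna6* call was lost without NaBu replicate 1 (adjusted p = 0.088 in edgeR) and without NaBu replicate 2 (0.11).

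*Kpna3* and *Kpna4*, encoding importins α4 and α3 that carry NF-κB, were not called. *Kpna3* had a mean of 31.9 ± 1.10 FPKM in NaBu cells and 29.9 ± 3.15 FPKM in control cells, and *Kpna4* had 33.2 ± 0.90 FPKM in NaBu cells and 31.7 ± 4.41 FPKM in control cells (SD, n = 2 each). Their log2 fold changes were -0.0040 (SE 0.08) and -0.03 (SE 0.09), and the sign turned positive for both under library totals as the scale and under limma on FPKM. With the GC trend removed, *Kpna3* was called higher (log2 fold change 0.18, adjusted p = 0.0049 in edgeR). Without control replicate 1, *Kpna4* was called lower (log2 fold change -0.17, adjusted p = 0.02 in edgeR).

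The makeup of the importin α transcripts differed between the groups. *Kpna2* held 30.8% and 31.9% of summed importin α FPKM in NaBu cells, against 63.4% and 62.3% in control cells. *Kpna4* held 22.0% ± 0.40 in NaBu cells and 13.0% ± 0.66 in control cells, *Kpna3* 21.1% ± 0.54 in NaBu cells and 12.3% ± 0.21 in control cells, *Kpna1* 15.5% ± 0.01 in NaBu cells and 6.84% ± 0.15 in control cells, and *Kpna6* 10.1% ± 0.14 in NaBu cells and 5.01% ± 0.22 in control cells (SD, n = 2 each). *Kpna2* stayed the most abundant importin α transcript in both groups. The ratio of *Kpna2* to *Kpna1* was 2.03 ± 0.05 in NaBu cells and 9.19 ± 0.32 in control cells (SD, n = 2 each). Without *Kpna2*, the summed importin α FPKM was 103.7 ± 2.09 in NaBu cells and 90.5 ± 9.94 in control cells (SD, n = 2 each). Divided by the TMM factors, that sum was 101.6 and 98.9 in NaBu cells, against 86.3 and 101.0 in control cells, so the groups overlapped on that scale.

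**Figure D3:**
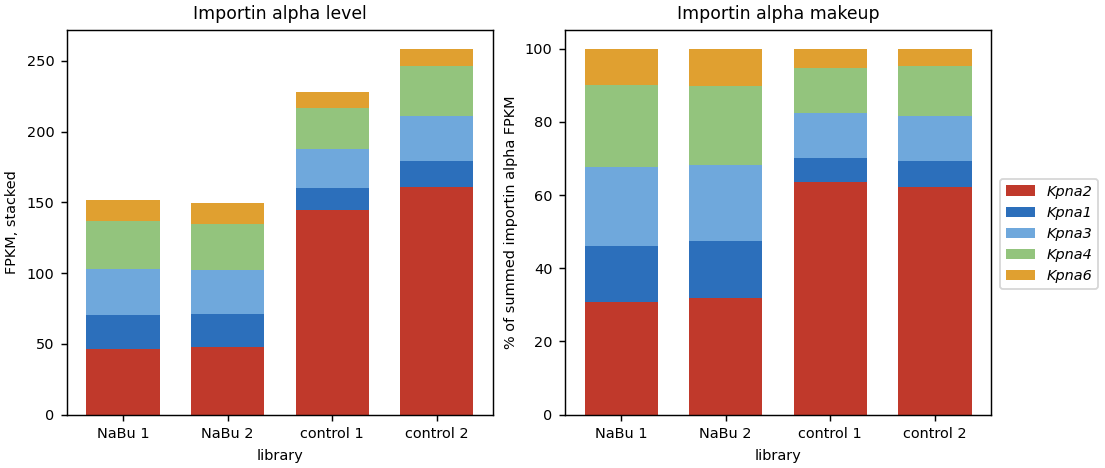
FPKM of the 5 expressed importin α genes stacked per library (left) and their share of summed importin α FPKM in percent (right), with the NaBu libraries left of the control libraries. The *Kpna2* segment is 30.8% and 31.9% of the NaBu bars and 63.4% and 62.3% of the control bars.

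All 10 import receptors of the importin β family were called lower, beside 34.1% of all tested genes. *Ipo13*, which carries cargo both ways and was called higher, was listed with the exportins and is not among the 10. *Kpnb1*, which encodes importin β1, the partner of importin α and the most abundant of the family, had 65.1 and 64.8 FPKM in NaBu cells, against 113.1 and 123.1 FPKM in control cells. The groups were well apart, with a log2 fold change of -0.96 (SE 0.07, adjusted p = 4.81e-07 in edgeR). *Kpnb1* fell less than its adaptor: the ratio of *Kpna2* to *Kpnb1* was 0.727 ± 0.014 in NaBu cells and 1.30 ± 0.02 in control cells (SD, n = 2 each). Of the summed fall of 270 FPKM over the 14 importins and exportins called lower, *Kpna2* made up 39.2%, and *Kpna2* and *Kpnb1* together 58.8%.

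*Ipo5*, a receptor for ribosomal proteins and histones, had 57.6 and 58.4 FPKM in NaBu cells, against 87.2 and 95.7 FPKM in control cells (log2 fold change -0.75, SE 0.07, adjusted p = 2.90e-06 in edgeR). *Ipo9*, which carries histones and actin, had 15.2 and 16.5 FPKM in NaBu cells, against 24.7 and 25.3 FPKM in control cells (log2 fold change -0.76, SE 0.06, adjusted p = 2.15e-06 in edgeR). *Ipo11*, an importer of the ubiquitin-conjugating enzyme UbcM2, had 10.2 and 9.76 FPKM in NaBu cells, against 13.7 and 14.9 FPKM in control cells (log2 fold change -0.61, SE 0.07, adjusted p = 3.09e-05 in edgeR). In all 3, every NaBu value lay below every control value, while 84.0% of all tested genes had no overlap in either direction.

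The remaining receptors of the family changed less. *Ipo8* had 10.3 and 9.95 FPKM in NaBu cells, against 12.1 and 12.8 FPKM in control cells (log2 fold change -0.40, SE 0.07, adjusted p = 0.00034 in edgeR). *Ipo7*, related to it and an importer of ribosomal proteins, had 43.5 and 42.5 FPKM in NaBu cells, against 46.2 and 56.5 FPKM in control cells (log2 fold change -0.35, SE 0.09, adjusted p = 0.0041 in edgeR). The spread of its control pair was wide, and the call was lost without NaBu replicate 2 (adjusted p = 0.066 in edgeR). The transportins, which import RNA-binding proteins and, for *Tnpo3*, splicing factors rich in serine and arginine, lay between -0.34 for *Tnpo1* and -0.27 for *Tnpo3*, with *Tnpo2* at -0.29, whose call was lost without NaBu replicate 1 (adjusted p = 0.082 in edgeR). *Ipo4* had the smallest fall, with 18.5 ± 0.89 FPKM in NaBu cells and 19.99 ± 0.52 FPKM in control cells (SD, n = 2 each), a log2 fold change of -0.21 and a call that was lost on the scale of library totals (adjusted p = 0.17 in edgeR), with DESeq2 (0.062) and without NaBu replicate 1 (0.21) or NaBu replicate 2 (0.065). *Ipo4*, *Ipo7* and *Tnpo2* were also not called by limma on log2(FPKM + 1), with adjusted p of 0.19, 0.063 and 0.054.

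The exportins split. *Xpo1*, the main exporter of proteins with a leucine-rich export signal and the target of the drug leptomycin B, had 28.6 and 28.1 FPKM in NaBu cells, against 52.5 and 63.5 FPKM in control cells. Its log2 fold change was -1.13 (SE 0.09, adjusted p = 9.50e-07 in edgeR). *Xpo4*, an exporter of the translation factor eIF5A, had 6.98 and 6.88 FPKM in NaBu cells, against 10.5 and 11.5 FPKM in control cells (log2 fold change -0.76, SE 0.08, adjusted p = 1.54e-05 in edgeR). *Xpo5*, the exporter of precursor microRNAs, had 16.8 and 16.4 FPKM in NaBu cells, against 22.4 and 24.3 FPKM in control cells (log2 fold change -0.59, SE 0.07, adjusted p = 1.89e-05 in edgeR). All 3 were lower in both NaBu libraries than in either control library, while 84.0% of all tested genes had no overlap in either direction.

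*Xpo6*, which exports actin and profilin, moved the other way. It had 60.4 and 58.3 FPKM in NaBu cells, against 41.2 and 39.7 FPKM in control cells, a log2 fold change of 0.45 (SE 0.06, adjusted p = 5.78e-05 in edgeR). The ratio of *Xpo6* to *Xpo1* was 2.09 ± 0.02 in NaBu cells and 0.706 ± 0.113 in control cells (SD, n = 2 each), so the most abundant of the exportin members was *Xpo6* in NaBu cells and *Xpo1* in control cells. *Ipo13*, a receptor that carries cargo both ways, had 14.2 and 14.8 FPKM in NaBu cells, against 12.3 and 11.6 FPKM in control cells (log2 fold change 0.19, SE 0.07, adjusted p = 0.041 in edgeR). Its call was lost with the replicate number as a block (adjusted p = 0.053 in edgeR), with DESeq2 (0.16) and without NaBu replicate 1 (0.15), NaBu replicate 2 (0.28) or control replicate 2 (0.12). *Xpo7* was not called, with 9.92 ± 0.05 FPKM in NaBu cells and 9.60 ± 0.63 FPKM in control cells (SD, n = 2 each). Of the exportins with other symbols, *Cse1l*, which returns importin α to the cytoplasm, was lower (log2 fold change -1.04, SE 0.09), and so was *Xpot*, the exporter of transfer RNA (-0.58, SE 0.06).

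**Figure D4:**
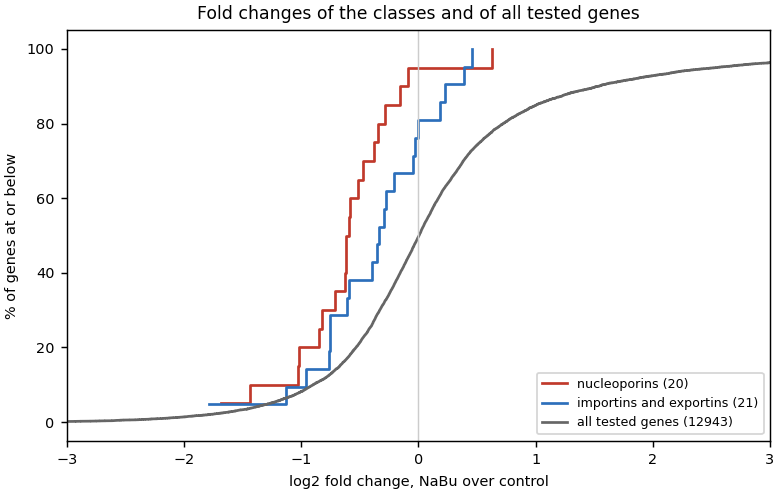
Percentage of genes at or below each log2 fold change, NaBu over control, for the 20 nucleoporins, the 21 tested importins and exportins and all 12943 tested genes. The median is -0.60 for nucleoporins, -0.34 for importins and exportins and 0.005 for all tested genes; the axis is limited to changes between -3 and 3.

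Of 13 pore protein genes with other symbols, 7 were called lower, 1 higher and 5 neither, beside 34.1% lower and 34.5% higher over all tested genes. Their median log2 fold change was -0.26, against -0.60 for the 20 nucleoporins selected by symbol.

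The Ran cycle, which gives transport its direction, was lower in its core and higher in accessory genes. Of its 9 genes, 5 were called lower and 3 higher, beside 34.1% lower and 34.5% higher over all tested genes. *Rcc1*, the chromatin-bound exchange factor that charges Ran with GTP, had 11.8 and 13.1 FPKM in NaBu cells, against 34.5 and 36.2 FPKM in control cells (log2 fold change -1.61, SE 0.08). *Ran* itself had 128.6 and 134.3 FPKM in NaBu cells, against 224.2 and 223.1 FPKM in control cells (log2 fold change -0.86, SE 0.06), and *Rangap1*, which triggers GTP hydrolysis in the cytoplasm, had a log2 fold change of -0.93 (SE 0.06). *Ranbp1*, a helper of that step, had a log2 fold change of -0.84 (SE 0.07). *Nutf2*, which encodes NTF2, the importer of Ran, was higher, with 8.85 and 7.91 FPKM in NaBu cells, against 4.19 and 2.78 FPKM in control cells (log2 fold change 1.17, SE 0.16). The expected counts of *Nutf2* were not whole in any library, so its level depends on how reads were divided between genes.

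Of 18 genes of bulk mRNA export, 11 were called lower, 2 higher and 5 neither, beside 34.1% lower and 34.5% higher over all tested genes. *Alyref*, an adaptor that couples spliced mRNA to the exporter, had the lowest log2 fold change (-1.55, SE 0.09), and the export receptor subunits *Nxf1* and *Nxt1* had -0.38 (SE 0.06) and -0.96 (SE 0.10). The helicase gene *Ddx39* had 33.9 and 34.4 FPKM in NaBu cells, against 71.4 and 70.6 FPKM in control cells (log2 fold change -1.15, SE 0.06), and *Thoc1*, of the THO complex that loads export factors on nascent mRNA, had a log2 fold change of -1.14 (SE 0.09). *Mcm3ap*, which encodes GANP, the scaffold of an export complex at the pore, had a log2 fold change of -1.06 (SE 0.06). In the lamina and envelope list, 9 of 13 genes were called lower and 2 higher, beside the same shares over all tested genes. The lamins moved in opposite directions: *Lmnb1* had 37.9 and 42.1 FPKM in NaBu cells, against 123.9 and 133.4 FPKM in control cells (log2 fold change -1.78, SE 0.07), while *Lmna* had 64.2 and 68.3 FPKM in NaBu cells, against 33.0 and 28.9 FPKM in control cells (log2 fold change 1.05, SE 0.07). *Tmpo*, which encodes the lamina-associated LAP2 proteins, had 36.3 and 36.8 FPKM in NaBu cells, against 105.8 and 117.7 FPKM in control cells (log2 fold change -1.71, SE 0.07).

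Kinases and partners of pore disassembly and reassembly at mitosis were split, with 4 of 9 called lower, 2 higher and 3 neither, and a median log2 fold change of -0.03. These counts are close to those that the shares over all tested genes, 34.1% lower and 34.5% higher, would give. *Plk1*, a mitotic kinase that phosphorylates nucleoporins, had 10.1 and 10.9 FPKM in NaBu cells, against 79.8 and 77.8 FPKM in control cells (log2 fold change -3.01, SE 0.07), and *Cdk1* had a log2 fold change of -2.09 (SE 0.07). *Nek7*, also a kinase of this list, was higher (0.76, SE 0.07).

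**Figure D5:**
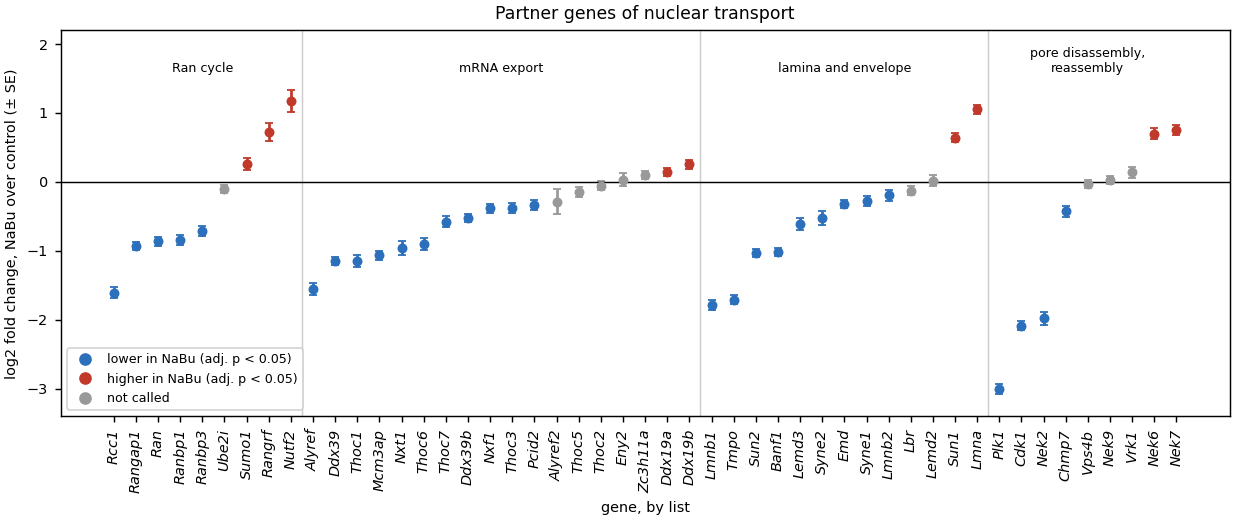
Log2 fold change, NaBu over control, with its standard error, for the partner genes of the Ran cycle, bulk mRNA export, the lamina and envelope, and pore disassembly and reassembly, coloured by call. *Plk1* at -3.01 is the lowest and *Nutf2* at 1.17 the highest of these genes.

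*Mki67*, a marker of cycling cells, had 18.5 and 21.2 FPKM in NaBu cells, against 106.4 and 109.8 FPKM in control cells (log2 fold change -2.54, SE 0.08), and its part in the results on pore and receptor genes was not tested. In bulk RNA, fewer cells of a kind, such as cells in mitosis, and less RNA per cell cannot be told apart. Among markers of other cells, the myeloid and dendritic list summed to 11.3 and 10.6 FPKM in NaBu cells, against 3.11 and 3.50 FPKM in control cells. All 3 of its 8 genes that were tested were higher. *Itgam* had 4.83 and 3.79 FPKM in NaBu cells, against 0.45 and 0.45 FPKM in control cells. *Itgax* had 4.24 and 4.66 FPKM in NaBu cells, against 2.24 and 2.42 FPKM in control cells. *Mpeg1* had 1.96 and 1.86 FPKM in NaBu cells, against 0.2 and 0.39 FPKM in control cells. *Adgre1*, *Cd14* and *Flt3* stayed at or below 0.21 FPKM in every library, and *Csf1r* and *Lyz2* were not listed. *Cd4* had 0.66 and 0.65 FPKM in NaBu cells, against 0.02 and 0.03 FPKM in control cells. The erythroid pair summed to 6.59 and 7.24 FPKM in NaBu cells, against 1.16 and 1.29 FPKM in control cells, with *Hbb-bs* at 0 in both NaBu libraries. Of the B cell markers, *Cd79b* went the other way, with 2.43 and 1.88 FPKM in NaBu cells, against 5.45 and 3.86 FPKM in control cells (log2 fold change -1.22). The NK cell list summed to 38.8 and 38.1 FPKM in NaBu cells, against 32.9 and 32.1 FPKM in control cells, with *Ncr1* at 0 in both NaBu libraries, *Klrc1* called higher (log2 fold change 0.46) and *Klrb1c* called lower (-1.003). The stromal pair summed to 17.5 and 16.8 FPKM in NaBu cells, against 20.9 and 22.0 FPKM in control cells, with *Pecam1* called lower (log2 fold change -0.47) and *Col1a1* called higher (2.70), at 0.54 and 0.54 FPKM in NaBu cells, against 0.04 and 0.11 FPKM in control cells. Whether such other cells were present was not tested, nor was their part in the results.

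Exons of 8 members overlap another gene listed in the files, for example *Nup62* with *Il4i1*, *Nup35* with *Dusp19* and *Tnpo3* with *Irf5*. *Il4i1* and *Dusp19* lie on the same strand as these members, so strand could not separate their reads. *Irf5* lies on the opposite strand to *Tnpo3*, and the sources used here do not state whether the libraries keep strand. Reads in such overlaps therefore cannot be assigned to one gene with certainty. Expected counts were whole in every library for 31 of the 42 members. Among the others, where reads had been divided between genes in at least 1 library, were *Nup133*, *Xpo1*, *Nup62*, *Nup214*, *Nup35* and *Nup98*. Partner genes with no whole count in any library included *Nutf2*, *Rangap1*, *Alyref*, *Ddx39*, *Thoc1* and *Mcm3ap*.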

How the data were processed

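RNA-seq libraries of OT-I CD8+ T cells, 2 exposed to NaBu and 2 controls, were grouped by sample title. The authors aligned reads to mm10 with Bowtie2 and quantified them with RSEM, per the submitters' processing notes (versions, annotation release, strandedness: not given in the sources used here). The deposited files hold, per gene, an expected count (not normalized, per the file headers, and divided between genes where reads matched several) and an FPKM value that the authors scaled to transcript length and library total.

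Expected counts were rounded to whole numbers and tested with edgeR 4.0.16 in R 4.3.3 (TMM, filterByExpr, quasi-likelihood F test, no covariate), which kept 12943 genes holding 99.95% of counts. P-values were adjusted by Benjamini-Hochberg over all of these genes and called at 0.05. Standard errors come from the F statistic, as the size of the log2 fold change over its square root. The model had 2 residual degrees of freedom and a prior of 8.25, with a biological coefficient of variation of 0.0524. FPKM was used as deposited, so a ratio of FPKM lacks the TMM factors (1.035 and 1.033 for NaBu libraries, 0.968 and 0.9658 for controls) and can differ from the fitted change. The test was tried on simulated data with known changes. Far fewer genes were changed there than were called here, so that trial cannot show how the scaling behaves on these data. Coordinates and promoters are from RefSeq on GRCm38.p6.

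The genes and lists were chosen with earlier results of these data known. Named genes were, per class, the 10 called members with the largest change, the called members against the direction of most, the 3 most abundant, up to 4 per partner list, and 20 partner genes by name; other members may be named. Genes named outside that rule, chosen after their values were seen, were the cell type markers; the sum of the B cell marker list is not reported here. Alternatives covered scaling, filters, DESeq2 1.42.0, limma 3.58.1 (voom, and log2 of FPKM plus 1 or 0.1), a 1.5-fold null, the replicate block, length and GC trends, and leaving out each library.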

Additional observations from a re-analysis of the deposited data

How the results depend on the processing

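The counts of 17 nucleoporins and 14 importins and exportins called lower stayed within 1.5 times under every alternative except the test against 1.5-fold, which gave 7 and 6, with 0 called higher in either class and 3779 of 8884 genes called in all. The 1 nucleoporin called higher became 0 with no filter on low counts, with DESeq2 and in the 3 limma fits on FPKM, and was 0 to 1 when leaving out a library; importins and exportins called higher were 2 to 4 when leaving out a library. That nucleoporin, *Nup210l*, was not tested in the limma fits on FPKM + 1 and FPKM + 0.1 that used a filter. It did not reach their minimum of 1 FPKM in 2 libraries, so the 0 there is not a lost call. The limma fit on FPKM + 1 with no filter tested it and did not call it (log2 fold change 0.32, adjusted p = 0.081 in limma). The median log2 fold change of nucleoporins stayed negative, at -0.51 on library totals, -0.54 with a 5 CPM minimum, -0.49 (FPKM + 1), -0.52 (FPKM + 0.1) and -0.48 (FPKM + 1, no filter) with limma, and -0.62 to -0.56 when leaving out a library. That of importins and exportins was -0.24 on library totals, -0.23, -0.24 and -0.21 in those limma fits, and -0.25 with the GC trend removed, an alternative chosen after seeing the data. Library totals move the median of all genes to 0.102, and relative to it the classes shift little. The cause of the other differences was not tested. The sign turned for 4 members with no call. *Nup98* was at 0.0037 on library totals, 0.024 in each limma fit on FPKM and 0.016 with the GC trend removed. *Xpo7* was at 0.047 on library totals, 0.0097 with 5 CPM, 0.044, 0.048 and 0.044 in the limma fits, 0.043 with the GC trend removed and -0.12 to 0.014 when leaving out a library. *Kpna3* was at 0.0038 with median-of-ratios factors, 0.093 on library totals, 0.056 with 5 CPM, 0.093, 0.096 and 0.093 in the limma fits, 0.18 with the GC trend removed and -0.11 to 0.10 when leaving out a library. *Kpna4* was at 0.065 on library totals, 0.027 with 5 CPM, 0.069, 0.071 and 0.069 in the limma fits, 0.11 with the GC trend removed and -0.17 to 0.11 when leaving out a library.

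The replicate numbers are not said to mark shared mice or days. The correlation of same-numbered deviations was -0.0306, and 1 such value cannot show whether same-numbered libraries shared a mouse, culture or day. With the replicate block, 17 nucleoporins were called lower and 1 higher, 14 importins and exportins lower and 3 higher, *Ipo13* being the call that was lost, and 8853 genes in all. The NaBu pair differed by 2.77 and the control pair by 7.27 in chi-square over degrees of freedom, where counting noise alone gives about 1. Among the tested members, counts were lowest for *Nup210l*, followed by *Nup35* and *Nup37*.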
